A study of Caenorhabditis elegans with 8 samples.

Results

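A set of 8 genes of metal, iron and heme handling was followed in whole Caenorhabditis elegans worms raised with or without antimycin A, a drug that blocks complex III of the mitochondrial respiratory chain. The 8 members are the metallothionein genes mtl-1 and mtl-2, the ferritin genes ftn-1 and ftn-2, the divalent metal importer gene smf-3, and the heme-responsive genes hrg-1, hrg-2 and hrg-4. They were taken by symbol from 6 deposited count tables that together list 14396 transcripts, and 7 of the 8 were listed. All 7 passed the filter on low counts. The genes were chosen by their pathway and by their counts in these same libraries, so their levels and differences are given as a description. No p-value of a member is given, and counts of members called stand only beside the share of all transcripts.

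Metallothioneins are small cysteine-rich proteins that bind zinc, copper and cadmium, and in C. elegans mtl-1 and mtl-2 are both inducible by cadmium in the intestine. Ferritin stores iron in a soluble shell, while SMF-3, a relative of the mammalian importer DMT1, takes iron and manganese up from the gut. Ferritin and smf-3 transcripts are known in C. elegans to respond to iron in opposite directions. C. elegans cannot make heme, the iron-containing cofactor of cytochromes, and obtains it from food through HRG transporters.

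Worms labelled damt-1 and wild type worms, both of the Bristol strain, were grown at 22 °C and collected as L4 larvae, the last larval stage. DAMT-1 is an N6-adenine methyltransferase, and the labels do not give the allele. Each genotype had 3 groups on 1.92 µM antimycin A (P0, F1 and F2) and 1 untreated group, with 2 libraries in each of the 8 groups. The labels do not say how many animals made up a library, whether the 2 libraries of a group came from separate cultures, or whether the parents of F1 and F2 worms had been on the drug. The p-values below therefore measure only the spread between libraries, which may be technical. The fit put the common part of that spread, edgeR's biological coefficient of variation, at only 2.18%. Small p-values here thus cannot be read as repeatability across separate cultures.

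Library totals ran between 3541390 and 4365451 counts. Levels of damt-1 mRNA overlapped between the untreated groups of both genotypes. It averaged 17.2, 18.5, 22.9 and 19.4 CPM (counts scaled to library size) in the P0, F1, F2 and untreated damt-1 groups, and 26, 31.4, 30.2 and 19.8 CPM in the same wild type groups. In the treated groups the damt-1 means were the lower ones. Since the untreated groups did not separate, the genotype is given as labelled throughout. All 10 intestinal markers checked were detected in every group, with a summed level of 3580 to 4350 CPM over all groups. The 6 listed of 7 germ line markers summed to 529 to 590 CPM in treated damt-1 worms against 720 to 724 CPM in untreated damt-1 worms. The same markers summed to 1120 to 1340 CPM in treated wild type worms against 828 to 851 CPM in untreated wild type worms. None of the listed germ line markers was at 0 in any group. In whole worms, fewer cells of a type and less RNA per cell cannot be told apart, and the part of the germ line in the results below was not tested.

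In wild type worms on antimycin A, mtl-1, hrg-2 and ftn-1 were all higher than in untreated worms, in all of P0, F1 and F2. In worms labelled damt-1 the same 3 genes stayed at low or middling levels with and without the drug. There hrg-1 was higher and smf-3 lower on the drug. The second metallothionein, mtl-2, and the second ferritin, ftn-2, spanned 1.24-fold and 1.17-fold between the lowest and the highest group mean.

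**Figure D1:**
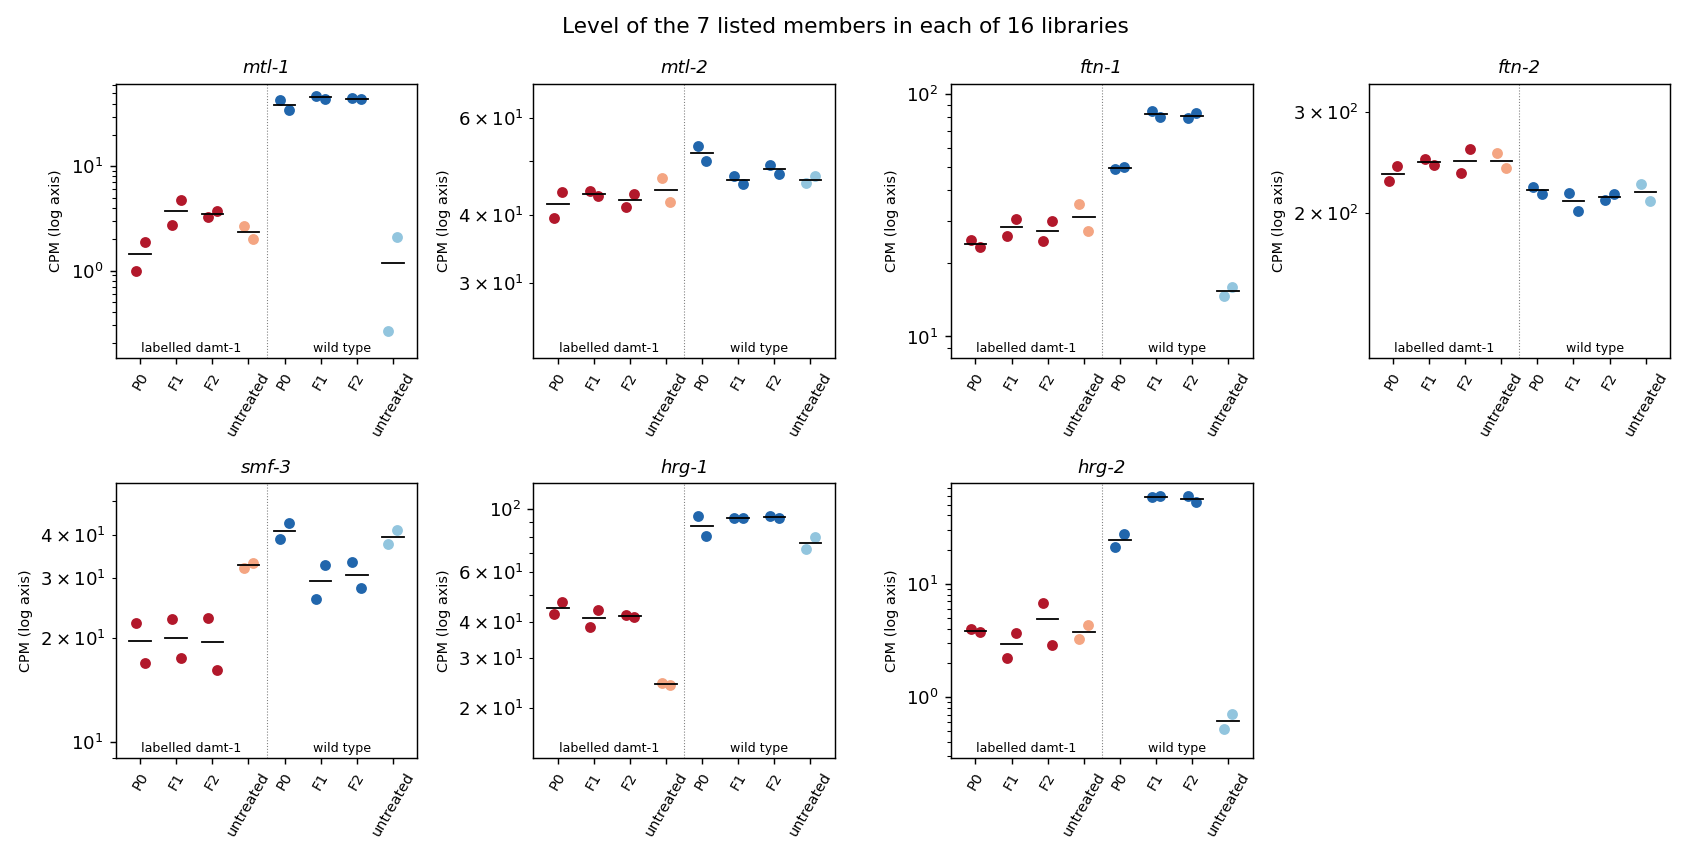
Level of each of the 7 listed members in each library, in CPM on a log axis, with worms labelled damt-1 (red) left of wild type (blue) and treated P0, F1 and F2 left of untreated (pale). Points are libraries and bars are the means of 2. The treated wild type libraries stand above all others for mtl-1, hrg-2 and ftn-1, and all 8 damt-1 libraries stand below all 8 wild type libraries for hrg-1.

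The metallothionein mtl-1 went with treatment in wild type. Its level in treated wild type worms was 42.9 and 34.5 CPM in P0, 47.8 and 44.2 CPM in F1, and 45.1 and 44.2 CPM in F2. In untreated wild type worms it was 0.262 and 2.12 CPM, which rests on 1 and 9 counts. All 6 treated libraries stood above both untreated ones. Summed counts gave ratios of 31 in P0 (exact 95% counting interval 16.7 to 65.4), 36.9 in F1 (19.9 to 77.7) and 35.9 in F2 (19.3 to 75.6). These intervals cover counting error only. The fitted log2 differences were 4.93 ± 0.33 in P0, 5.18 ± 0.32 in F1 and 5.13 ± 0.32 in F2 (SE). They hang on the few untreated counts: without untreated replicate 2 they were 7.04, 7.29 and 7.25, and without untreated replicate 1 they were 4.16, 4.41 and 4.38.

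In worms labelled damt-1, mtl-1 stayed near the level of untreated wild type. It had 0.999 and 1.86 CPM in P0, 2.74 and 4.71 CPM in F1, and 3.27 and 3.76 CPM in F2, against 2.7 and 2.03 CPM in untreated damt-1 worms. P0 libraries lay below the untreated ones, while F1 and F2 libraries lay above them, on 4 to 18 counts a library. The log2 differences of −0.72 ± 0.59, 0.66 ± 0.47 and 0.57 ± 0.48 (SE) did not share a sign.

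Its paralog mtl-2 hardly varied. The level in damt-1 worms was 39.5 and 44 CPM in P0, 44.1 and 43.2 CPM in F1, and 41.3 and 43.6 CPM in F2, against 46.7 and 42.1 CPM untreated. In wild type it was 53.3 and 50.1 CPM in P0, 47 and 45.5 CPM in F1, and 49.3 and 47.4 CPM in F2, against 45.6 and 47 CPM untreated. The largest of the 6 log2 differences between treated and untreated worms was 0.16 ± 0.1 (SE), in wild type P0. Divided by transcript length, the 2 metallothioneins differed widely in untreated wild type worms, at 3.2 CPM per kb for mtl-1 and 133 CPM per kb for mtl-2. In wild type F1 worms they stood close together, at 123 CPM per kb for mtl-1 and 133 CPM per kb for mtl-2.

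The 2 ferritin genes differed in how far their counts varied. Wild type levels of ftn-1, the ferritin gene expressed mainly in the intestine, were 49.1 and 50.1 CPM in P0, 84.7 and 80.2 CPM in F1, and 79.4 and 83.1 CPM in F2, against 14.7 and 16 CPM in untreated worms. The groups did not overlap, and F1 and F2 libraries also stood above both P0 libraries. The log2 differences from untreated worms were 1.69 ± 0.14 in P0, 2.42 ± 0.13 in F1 and 2.4 ± 0.13 in F2 (SE), or 3.22-fold, 5.34-fold and 5.27-fold.

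In worms labelled damt-1, group means of ftn-1 were lower on the drug. Its level was 25 and 23.3 CPM in P0, 26 and 30.6 CPM in F1, and 24.7 and 29.8 CPM in F2, against 35.3 and 27.1 CPM in untreated damt-1 worms. The P0 libraries lay below both untreated libraries, and those of F1 and F2 overlapped them. The log2 differences were −0.36 ± 0.14 in P0, −0.13 ± 0.14 in F1 and −0.2 ± 0.14 in F2 (SE).

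The more broadly expressed ferritin gene ftn-2 averaged 234, 245, 246 and 246 CPM in the P0, F1, F2 and untreated damt-1 groups, and 219, 210, 213 and 218 CPM in the same wild type groups. Treated and untreated libraries overlapped in all 6 comparisons, and the log2 differences lay between −0.08 and 0.01. The counts of ftn-2 lie where the measure itself is compressed, so this narrow range cannot be read as stable abundance. Averaged over the 16 libraries, ftn-2 had 1.38 counts per nucleotide, and the 99th percentile of 12374 transcripts was also 1.38. The other members had 0.0596 to 0.518 counts per nucleotide, where the median transcript had 0.109. Above that point densities crowd together: in each library the 99th percentile was 1.38 to 1.46 and the 99.9th percentile 1.67 to 1.75 counts per nucleotide. The crowding is not a fixed upper limit, since the highest transcript averaged 5.12 counts per nucleotide. Counts of ftn-2 were 857 to 943 in all 16 libraries. The library with the lowest total had 893 and the one with the highest total had 894, so its CPM also moves with library size. The part of this compression in the profile of ftn-2 was not tested.

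**Figure D2:**
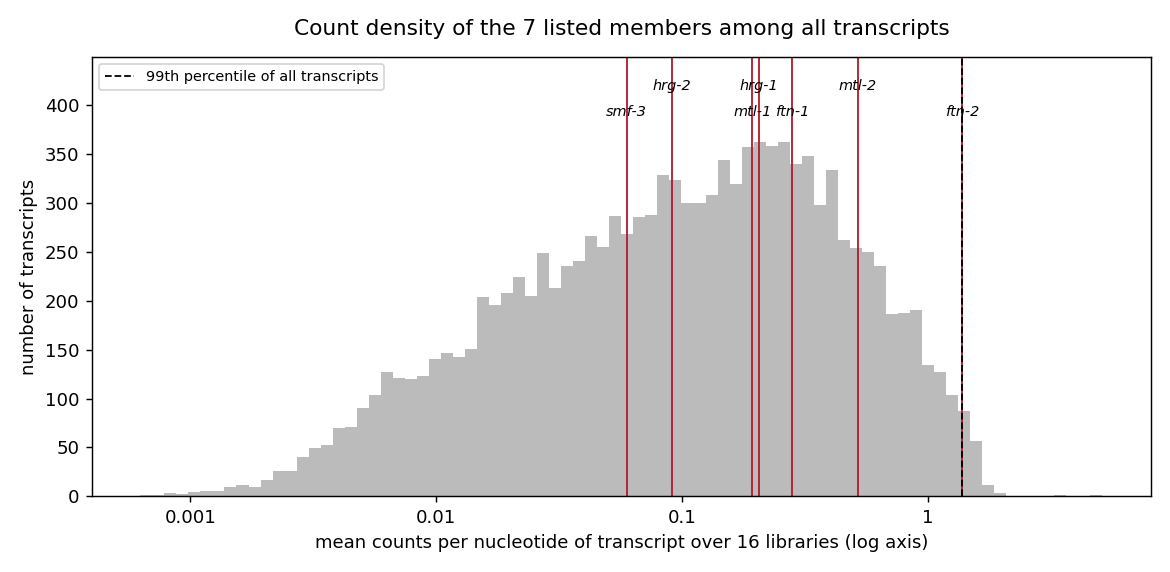
Histogram of mean counts per nucleotide of transcript over 16 libraries, on a log axis, for 12374 transcripts (grey), with the 7 listed members as red lines and the 99th percentile as a dashed line. The line of ftn-2 coincides with the 99th percentile at 1.38 counts per nucleotide, and smf-3, at 0.0596, is the lowest member.

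The iron and manganese importer smf-3 was lower on antimycin A in worms labelled damt-1. Its level there was 22.2 and 17 CPM in P0, 22.7 and 17.5 CPM in F1, and 22.9 and 16.2 CPM in F2, against 32.1 and 33.2 CPM in untreated damt-1 worms. All 6 treated libraries lay below both untreated ones. The log2 differences were −0.73 ± 0.18 in P0, −0.7 ± 0.18 in F1 and −0.73 ± 0.18 in F2 (SE). The second library of each treated group was the lower one, and without it the differences were −0.56 in P0, −0.52 in F1 and −0.51 in F2. Without untreated damt-1 replicate 2 they were −0.67 in F1 and −0.7 in F2.

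In wild type, smf-3 had 38.8 and 43.4 CPM in P0, 26 and 32.6 CPM in F1, and 33.3 and 28 CPM in F2, against 37.5 and 41.3 CPM in untreated worms. P0 overlapped the untreated libraries, with a log2 difference of 0.06 ± 0.15 (SE). F1 and F2 lay below them, by −0.42 ± 0.16 and −0.36 ± 0.16 on the log2 scale (SE). The F1 difference was −0.28 without F1 replicate 1 and −0.35 without untreated replicate 2.

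Of the heme genes, hrg-1 encodes a transporter that moves heme out of lysosome-related compartments of the gut in C. elegans. Worms labelled damt-1 had 42.7 and 47.2 CPM of hrg-1 in P0, 38.6 and 44.2 CPM in F1, and 42.6 and 41.9 CPM in F2, against 24.5 and 24.1 CPM untreated. Every treated damt-1 library lay above both untreated ones. The log2 differences were 0.88 ± 0.13, 0.77 ± 0.13 and 0.8 ± 0.13 in P0, F1 and F2 (SE).

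Wild type worms had more hrg-1 throughout, at 94.6 and 80.5 CPM in P0, 92.8 and 93.3 CPM in F1, and 94.7 and 92.8 CPM in F2, against 72.4 and 79.5 CPM untreated. Treated wild type libraries lay above the untreated ones by 0.2 ± 0.08 in P0, 0.29 ± 0.08 in F1 and 0.3 ± 0.08 in F2 on the log2 scale (SE). Without untreated wild type replicate 1 the F1 and F2 differences were 0.23 and 0.24, and without F1 replicate 2 that of F1 was 0.25. The highest damt-1 library, at 47.2 CPM, lay below the lowest wild type library, at 72.4 CPM. The annotation (WBcel235) places hrg-1 over another gene on the same strand, R02E12.9, and over mop-25.1 on the other strand. Whether counting used strand is not given in the sources used here, so reads in the shared stretches cannot be told apart.

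The gene hrg-2 encodes a heme-responsive membrane protein of the hypodermis, the worm's skin. It had the widest range of the 7 members, with group means that spanned 94.8-fold. Treated wild type worms had 21.2 and 27.3 CPM in P0, 57.7 and 59.1 CPM in F1, and 58.9 and 53.1 CPM in F2, against 0.525 and 0.708 CPM in untreated worms, which rests on 2 and 3 counts. All 6 treated libraries stood above the untreated ones, and F1 and F2 stood above P0. Ratios of summed counts were 39.3 in P0 (exact 95% counting interval 16.5 to 122), 94.1 in F1 (40 to 291) and 90.2 in F2 (38.4 to 279). The fitted log2 differences were 5.22 ± 0.39, 6.48 ± 0.33 and 6.42 ± 0.33 (SE).

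In worms labelled damt-1, hrg-2 had 4 and 3.71 CPM in P0, 2.19 and 3.67 CPM in F1, and 6.8 and 2.89 CPM in F2, against 3.24 and 4.31 CPM untreated. Treated and untreated libraries overlapped in all 3 comparisons. The log2 differences were 0.03 ± 0.4, −0.36 ± 0.43 and 0.39 ± 0.38 (SE). Summed levels of the 5 listed of 8 epidermal markers, the tissue of hrg-2, were 1050 to 1160 CPM in treated and 1110 to 1160 CPM in untreated damt-1 worms. They were 848 to 935 CPM in treated and 820 to 871 CPM in untreated wild type worms, with none at 0. Their part in the level of hrg-2 was not tested.

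The third heme gene, hrg-4, which encodes an importer at the gut surface in C. elegans, was listed in none of the 6 tables. The tables list no transcript with fewer than 11 counts over the 4 libraries of a table, so hrg-4 may have had up to 10 there. It has 2 RefSeq transcripts in the annotation, whereas each listed member has 1. Of protein-coding genes with 1 RefSeq transcript 73% were listed, against 48.7% of those with 2 or more. Its level is therefore not known here.

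**Figure D3:**
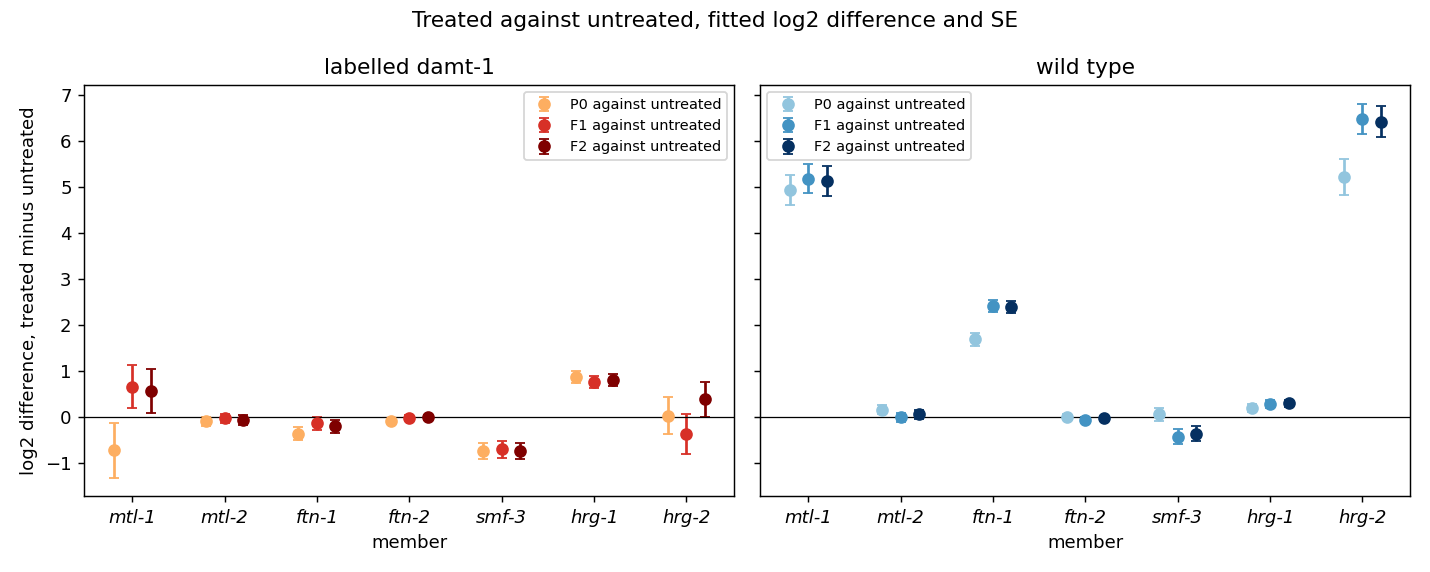
Fitted log2 difference of treated minus untreated worms for the 7 listed members, with SE as bars, in worms labelled damt-1 (left panel) and wild type (right panel), each for P0, F1 and F2. In wild type mtl-1, hrg-2 and ftn-1 lie between 1.69 and 6.48, while in damt-1 hrg-1 lies near 0.8 and smf-3 near −0.7.

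Of the 7 listed members edgeR called 2 in each damt-1 comparison at an adjusted p of 0.05, where the share of all transcripts was 14.1% in P0, 13.2% in F1 and 13.7% in F2. In wild type it called 3 members in P0, 5 in F1 and 4 in F2, where the share of all transcripts was 21.1%, 46.9% and 46.9%. DESeq2 called 3 in wild type F1. Between untreated genotypes edgeR called 4 members, against 38.2% of all transcripts. For the difference between genotypes in their response it called 5 in P0 and 4 in each of F1 and F2, against 22%, 40.4% and 40.1% of all transcripts. These counts follow from how the members were chosen and show nothing about them as a group. The 3 comparisons of a genotype share its 2 untreated libraries.

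Set side by side without the drug, damt-1 and wild type worms already differed in some members. The level of hrg-1 was 24.3 ± 0.33 CPM in untreated damt-1 worms and 75.9 ± 5 CPM in untreated wild type worms (SD, n = 2 each), a log2 difference of −1.65 ± 0.11 (SE). For hrg-2 the means were 3.77 ± 0.76 CPM in damt-1 and 0.616 ± 0.13 CPM in wild type, a log2 difference of 2.55 ± 0.6. For ftn-1 they were 31.2 ± 5.8 CPM in damt-1 and 15.4 ± 0.96 CPM in wild type, a log2 difference of 1.01 ± 0.16. The 2 genotypes did not overlap for these 3 genes. For ftn-2, whose counts lie in the compressed range, the log2 difference was 0.18 ± 0.05, which was 0.14 without damt-1 replicate 1 and 0.13 without wild type replicate 2. For mtl-1 it was 0.91 ± 0.6 with overlapping libraries, and 3.02 or 0.14 without wild type replicate 2 or 1.

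The difference between genotypes in their response is the treated minus untreated log2 difference in damt-1 less that in wild type. For mtl-1 it was −5.65 ± 0.75 in P0, −4.51 ± 0.69 in F1 and −4.57 ± 0.69 in F2 (SE). These values were −7.76, −6.62 and −6.68 without untreated wild type replicate 2, and −4.89, −3.75 and −3.81 without replicate 1. For hrg-2 it was −5.2 ± 0.65, −6.85 ± 0.65 and −6.04 ± 0.63. The F2 value was −6.81 without damt-1 F2 replicate 1. For ftn-1 it was −2.05 ± 0.21, −2.55 ± 0.2 and −2.6 ± 0.2. All 3 genes thus had the smaller or opposite difference in damt-1.

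For hrg-1 and smf-3 the values were smaller. The difference in response of hrg-1 was 0.69 ± 0.15 in P0, 0.48 ± 0.15 in F1 and 0.5 ± 0.15 in F2 (SE), so its difference was the larger one in damt-1. Without untreated damt-1 replicate 2 the F1 and F2 values were 0.47 and 0.48, without untreated wild type replicate 2 they were 0.41 and 0.42, and without damt-1 F1 replicate 2 that of F1 was 0.38. The difference in response of smf-3 was −0.79 ± 0.24 in P0, −0.28 ± 0.24 in F1 and −0.36 ± 0.24 in F2. In P0 it was −0.62 without damt-1 P0 replicate 2, −0.77 without untreated damt-1 replicate 2, −0.71 without wild type P0 replicate 2 and −0.73 without untreated wild type replicate 1. For mtl-2 the difference in response lay between −0.24 and −0.02, and for ftn-2 between −0.08 and 0.04.

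Over the 16 libraries, log2 CPM of hrg-2 and ftn-1 had a Pearson correlation of 0.97, and mtl-1 had 0.94 with each of them. These values describe 8 groups more than 16 separate points, since the libraries of a group lie close together. The 2 metallothioneins correlated at 0.67 and the 2 ferritins at −0.48. Group means of mtl-2 spanned only 1.24-fold, and the counts of ftn-2 lie in the compressed range. These 2 values therefore cannot be read as alike or opposite responses within a pair. Many other transcripts share the profiles of single members. Of 9095 transcripts with a mean of at least 10 CPM, 208 correlated above 0.9 with hrg-2, 188 with ftn-1, 91 with mtl-1, 209 with hrg-1 and 2 with smf-3. Those most like mtl-1 were the monooxygenase gene cyp-14A1 (0.973), T04A6.1 (0.968) and sodh-1, an alcohol dehydrogenase gene (0.963). For hrg-2 they were C50D2.9 (0.979), perm-5 (0.979) and cyp-14A1 (0.975). For ftn-1 they were ugt-13, of the UDP-glucuronosyltransferase family (0.979), oac-7 (0.975) and F36A2.3 (0.973). The profile closest to hrg-1 was that of nnt-1, which encodes the mitochondrial nicotinamide nucleotide transhydrogenase (0.996), followed by C23H4.2 (0.985) and ugt-25 (0.98). For smf-3 they were ugt-30 (0.903), clec-218 (0.902) and ugt-37 (0.89). As an example of scale, cyp-14A1 averaged 138, 209 and 216 CPM in wild type P0, F1 and F2 against 7.17 CPM untreated. In damt-1 it averaged 19.2, 22.2 and 22.3 CPM against 15.2 CPM untreated.

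Other genes of metal, iron and heme handling were tested beside the members. Their lists were also chosen with earlier results of these data known, and some genes are named only after their values were seen. The p-values and called shares below therefore describe these libraries and are no independent test. Of 56 genes on 7 lists, 43 were listed, and 40 or 41 transcripts entered each comparison. By edgeR's quasi-likelihood test with Benjamini-Hochberg adjustment over all transcripts, 7 were called higher and 2 lower in damt-1 P0, 5 and 2 in F1, and 6 and 2 in F2. In wild type 12 were higher and 3 lower in P0, 18 and 8 in F1, and 16 and 9 in F2. The called share of the tested genes was 22.5%, 17.5% and 20% in damt-1 P0, F1 and F2, and 36.6%, 63.4% and 61% in wild type, against the shares of all transcripts given above. Median log2 differences of the lists together lay between 0.02 and 0.11, where those of all transcripts lay between −0.01 and 0.03. With library scaling taken from sparsely covered transcripts, 10 were higher and 10 lower in wild type F1, and 11 and 11 in F2.

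**Figure D4:**
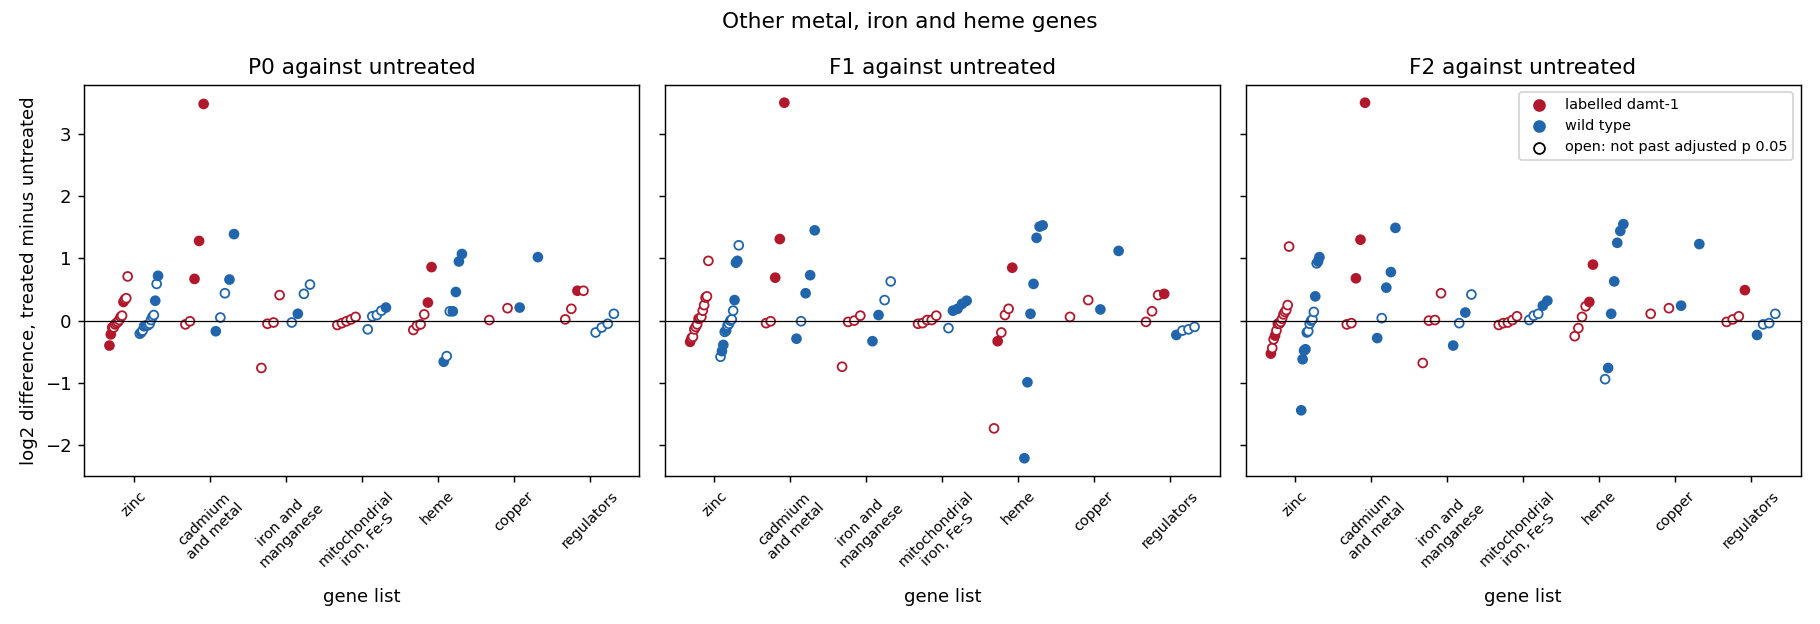
Log2 difference of treated minus untreated worms for other metal, iron and heme genes by list, in P0, F1 and F2, with worms labelled damt-1 (red) left of wild type (blue). Each point is a transcript, filled where its adjusted p was under 0.05. The highest point in each panel is cdr-1 in damt-1, at 3.48 to 3.5.

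Of 5 tested transcripts of the cadmium list, 3 rose in each damt-1 comparison. In wild type 2 rose in P0 and 3 in each of F1 and F2, and hmt-1 fell in all 3. The called share was 60% in each damt-1 comparison, beside 14.1%, 13.2% and 13.7% of all transcripts in P0, F1 and F2. In wild type the called share was 60%, 80% and 80%, beside 21.1%, 46.9% and 46.9% of all transcripts. The gene cdr-1, induced in the C. elegans gut by cadmium, had the largest rise. It had 117 and 99 CPM in damt-1 P0, 112 and 108 CPM in F1, and 107 and 113 CPM in F2, against 12.9 and 6.59 CPM in untreated damt-1 worms. That is a log2 difference of 3.48 ± 0.15, 3.5 ± 0.15 and 3.5 ± 0.15 (SE), with edgeR adjusted p of 9.1e-15, 7.7e-15 and 8.8e-15. In wild type cdr-1 had 31.8 and 31.4 CPM in P0, 30.4 and 32.6 CPM in F1, and 35 and 32.5 CPM in F2, against 22 and 24.5 CPM untreated. The treated libraries were higher there in all 6 cases, but the differences were only 0.44 to 0.53 on the log2 scale. The edgeR adjusted p was 0.053 in P0, 0.026 in F1 and 0.007 in F2. The F1 call was lost without F1 replicate 2 (0.35) or untreated replicate 1 (0.36), and the F2 call without F2 replicate 1 (0.48) or untreated replicate 1 (0.46). The F1 call was also lost by DESeq2 (0.43) and with scaling taken from sparsely covered transcripts (0.31).

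The response of cdr-1 differed between genotypes by 3.04 ± 0.24 in P0, 3.07 ± 0.24 in F1 and 2.97 ± 0.24 in F2 (SE, edgeR adjusted p = 6.6e-10, 2.3e-10 and 4.2e-10). Untreated damt-1 worms had less cdr-1 than untreated wild type worms, by −1.27 ± 0.21 (edgeR adjusted p = 3.2e-05). Its relatives cdr-4 and cdr-2 rose in both genotypes. For cdr-4 the log2 rise was 1.28 to 1.31 in damt-1 and 1.39 to 1.49 in wild type, and for cdr-2 it was 0.67 to 0.69 in damt-1 and 0.66 to 0.78 in wild type. Their difference between genotypes lay between −0.19 and 0.01 with an SE of at most 0.09, and the smallest edgeR adjusted p was 0.087, for cdr-4 in F2. Treated wild type libraries had 1315 to 1468 counts of cdr-4, on 964 nucleotides, and 1023 to 1180 of cdr-2, on 870 nucleotides. That is near the compressed range described for ftn-2, so an equal response of the genotypes cannot be read from these values. The part of the compression was not tested. A half-transporter gene of cadmium tolerance in C. elegans, hmt-1, fell in wild type by −0.17, −0.29 and −0.28 in P0, F1 and F2 (SE 0.04 each, edgeR adjusted p = 0.0025, 3.1e-06 and 5.7e-06). The P0 call was lost without P0 replicate 1 (−0.14).

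**Figure D5:**
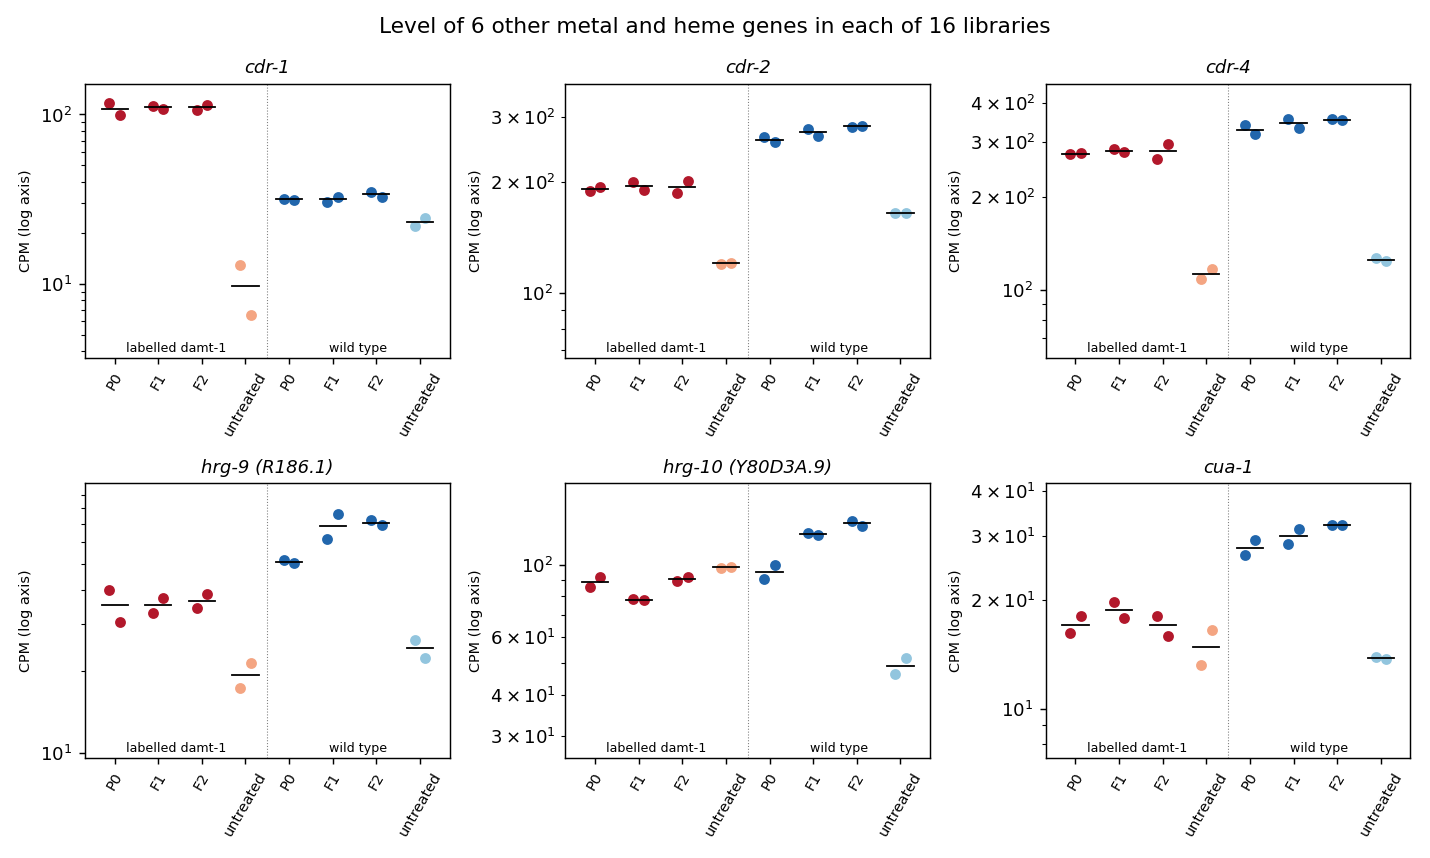
Level of 6 other metal and heme genes in each library, in CPM on a log axis, with worms labelled damt-1 (red) left of wild type (blue) and treated groups left of untreated (pale). Treated damt-1 libraries of cdr-1 sit between 99 and 117, above all wild type libraries, while treated wild type libraries are the highest for hrg-9 and cua-1.

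In the heme list 4 of 7 tested transcripts were called higher and 1 lower in wild type P0, 5 and 2 in F1, and 5 and 1 in F2. The called share was 71.4%, 100% and 85.7%, beside 21.1%, 46.9% and 46.9% of all transcripts. DESeq2 called 4 higher in P0, 3 higher and 2 lower in F1, and 3 higher and 1 lower in F2. A pair of genes related to mammalian TANGO2 and implicated in heme trafficking, hrg-9 and hrg-10, are listed as R186.1 and Y80D3A.9. For hrg-9 (R186.1) the mean was 50.9, 68.7 and 70.9 CPM in wild type P0, F1 and F2 against 24.3 CPM untreated, with log2 differences of 1.07 ± 0.15, 1.51 ± 0.14 and 1.55 ± 0.14 (SE, edgeR adjusted p = 6.7e-06, 2.9e-09 and 1.9e-09). In damt-1 it was 35.2, 35.1 and 36.5 CPM against 19.4 CPM, with log2 differences of 0.86 ± 0.17, 0.85 ± 0.17 and 0.9 ± 0.17 (edgeR adjusted p = 0.00065, 0.00082 and 0.00042). It rose in both genotypes, with a smaller fitted rise in damt-1 in F1 and F2 that was not called by every method. The response differed by −0.21 ± 0.23 in P0, −0.65 ± 0.23 in F1 and −0.65 ± 0.22 in F2 (edgeR adjusted p = 0.59, 0.023 and 0.025). The F1 call was lost without damt-1 F1 replicate 1 (−0.56), untreated damt-1 replicate 2 (−0.48), wild type F1 replicate 2 (−0.46) or untreated wild type replicate 2 (−0.54). The F2 call was lost without damt-1 F2 replicate 1 (−0.56) or untreated damt-1 replicate 2 (−0.48). It was also lost without wild type F2 replicate 1 (−0.62) or untreated wild type replicate 2 (−0.54). The F1 and F2 calls were both lost by DESeq2 (−0.66 and −0.65). Both were lost too with scaling taken from sparsely covered transcripts (−0.52 and −0.53).

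Treated wild type worms also had more hrg-10 (Y80D3A.9). It averaged 95.1, 124 and 133 CPM in wild type P0, F1 and F2 against 49 CPM untreated, with log2 differences of 0.95 ± 0.08, 1.33 ± 0.07 and 1.44 ± 0.07 (SE, edgeR adjusted p = 2.1e-09, 3.2e-13 and 6.6e-14). In damt-1 it averaged 88.3, 78.2 and 90.2 CPM against 98 CPM untreated. There it fell in F1, by −0.33 ± 0.07 (edgeR adjusted p = 0.002), and the P0 and F2 differences were −0.15 and −0.12. Untreated damt-1 worms had more of it than untreated wild type worms, by 0.99 ± 0.08 (edgeR adjusted p = 1.7e-10). Its response differed between genotypes by −1.1, −1.66 and −1.56 (SE 0.1 each, edgeR adjusted p = 1.4e-08, 3.4e-12 and 7.7e-12).

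Among the other heme genes, hrg-7, which encodes a secreted protease-like signal of heme status in C. elegans, rose in wild type by 0.46 to 0.63 and in damt-1 P0 and F2 by 0.29 and 0.3. The transcript of hrg-3, a carrier of heme to embryos in C. elegans, had 26 and 35 counts in wild type F1 against 7 and 13 counts untreated. Its log2 difference of 1.53 ± 0.49 (SE, edgeR adjusted p = 0.016) was no longer called without F1 replicate 2 (1.34) or untreated replicate 1 (1.22), or by DESeq2 (1.54). In F2 it was 2.38-fold higher (edgeR adjusted p = 0.05), a call lost without either F2 library (1 and 1.44) or either untreated library (0.95 and 1.68 on the log2 scale), and by DESeq2 (1.27). It was not listed in the damt-1 tables. Another hrg-4 relative, hrg-6, fell in wild type P0, F1 and F2 by −0.66 ± 0.21, −0.99 ± 0.22 and −0.76 ± 0.22 (edgeR adjusted p = 0.03, 0.00073 and 0.0061). The P0 call was lost without P0 replicate 1 (−0.36) or untreated replicate 2 (−0.47), and the F2 call without untreated replicate 2 (−0.56). The hrg-4 relative hrg-5 had 7 and 8 counts in wild type F1 against 34 and 33 counts untreated, a fall of −2.21 ± 0.52 on the log2 scale (edgeR adjusted p = 0.0012). It was also lower in untreated damt-1 than in untreated wild type, by −1.6 ± 0.49 (edgeR adjusted p = 0.012), a call lost without damt-1 replicate 1 (−1.13) or wild type replicate 1 (−1.5).

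In the copper list, cua-1, the copper-transporting ATPase gene, averaged 27.9, 30 and 32.3 CPM in wild type P0, F1 and F2 against 13.8 CPM untreated. The log2 differences were 1.02 ± 0.17, 1.12 ± 0.16 and 1.23 ± 0.16 (SE, edgeR adjusted p = 6.7e-05, 4.8e-06 and 1.2e-06). In damt-1 it averaged 17.1, 18.8 and 17 CPM against 14.8 CPM, and the differences of 0.2 to 0.33 were not called. EdgeR called its difference in response in P0 and F1, and DESeq2 in neither (−0.83 and −0.8). The P0 call was lost without damt-1 P0 replicate 1 (−0.74) or untreated damt-1 replicate 2 (−0.65). It was also lost without wild type P0 replicate 2 (−0.75) or untreated wild type replicate 2 (−0.81). The F1 call was lost without untreated damt-1 replicate 2 (−0.62) or wild type F1 replicate 2 (−0.68). In F2 both methods called 1 of the 2 copper transcripts.

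Zinc genes moved in both directions. Of 14 tested transcripts, 2 rose and 1 fell in wild type P0, 3 and 3 in F1, and 3 and 5 in F2. The called share was 21.4%, 42.9% and 57.1%, beside 21.1%, 46.9% and 46.9% of all transcripts. The ZIP family transporter gene zipt-7.1 rose in wild type P0, F1 and F2 by 0.72 ± 0.12, 0.93 ± 0.12 and 0.95 ± 0.12 (SE, edgeR adjusted p = 9.5e-05, 5.3e-07 and 4.7e-07). In damt-1 its differences were −0.11, −0.1 and −0.3, and the response differed between genotypes by −0.83, −1.03 and −1.24 (SE 0.19 each, edgeR adjusted p = 0.0021, 0.00011 and 1.5e-05). The gut zinc storage transporter gene cdf-2 fell in wild type F1 and F2, by −0.49 ± 0.06 and −0.62 ± 0.06 (edgeR adjusted p = 1.5e-07 and 5.1e-09). In damt-1 its differences were 0.08 to 0.16. The tested transcript of the zinc exporter gene ttm-1 fell in wild type F2, by −1.44 ± 0.43 (edgeR adjusted p = 0.0084), a call lost without F2 replicate 1 (−1.36). Another listed ttm-1 transcript did not pass the count filter. It had 0.747 CPM in untreated wild type worms against 1.74 CPM in P0 and 1.19 CPM in F1, on 6 to 14 counts a group. Without the drug, zipt-2.3 was higher in damt-1 than in wild type by 1.12 ± 0.14 and zipt-17 lower by −0.99 ± 0.13 (edgeR adjusted p = 4.2e-07 and 1.5e-06).

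The ferroportin homolog genes, relatives of the mammalian iron exporter, differed from each other. For fpn-1.2 the treated minus untreated log2 differences were −0.76, −0.74 and −0.68 in damt-1 (SE 0.32 each) and 0.58 ± 0.3, 0.63 ± 0.3 and 0.42 ± 0.31 in wild type, and edgeR called none of the 6. The response differed between genotypes by −1.34 ± 0.44 in P0, −1.38 ± 0.44 in F1 and −1.09 ± 0.44 in F2 (edgeR adjusted p = 0.029, 0.015 and 0.053). Without untreated damt-1 replicate 2 the P0 and F1 values were −0.86 and −0.89, and the calls were lost. They were also lost without some other single libraries, and DESeq2 did not call the P0 value (−1.35). The gene fpn-1.1 fell in wild type F1 and F2, by −0.33 ± 0.05 and −0.4 ± 0.05 (SE, edgeR adjusted p = 4.9e-06 and 4.9e-07). Of 5 genes of mitochondrial iron and iron-sulphur assembly, 1 rose in wild type P0, 4 in F1 and 2 in F2. That is 20%, 80% and 40% of the list, beside 21.1%, 46.9% and 46.9% of all transcripts. The differences were at most 0.32 on the log2 scale, and DESeq2 called 0, 1 and 1. The one called in all 3 was lpd-8, which encodes an iron-sulphur scaffold protein, and its P0 value of 0.21 was no longer called without P0 replicate 2 (0.18) or either untreated library (0.22 and 0.2). In damt-1, where edgeR called 14.1%, 13.2% and 13.7% of all transcripts in P0, F1 and F2, it called none of these 5. Of them 0 had an unadjusted p under 0.05, and DESeq2 called 0. Their log2 differences there lay between −0.07 and 0.08.

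Of the regulators, pqm-1, a zinc finger factor gene, rose in damt-1 P0, F1 and F2 by 0.48, 0.43 and 0.49 (SE 0.06 each, edgeR adjusted p = 2.3e-06, 1.3e-05 and 1.5e-06). In wild type P0 its difference of 0.11 ± 0.05 was not called. Without the drug pqm-1 was lower in damt-1 than in wild type, by −0.58 ± 0.06 (edgeR adjusted p = 1.6e-08). For daf-16, another listed regulator, the differences were 0.48, 0.41 and −0.02 in damt-1 P0, F1 and F2. In wild type P0 that of daf-16 was −0.19 (SE 0.23 to 0.25), and none of these was called. The gut GATA factor gene elt-2, which drives ftn-1 and the metallothioneins in C. elegans, fell in wild type F1 and F2. Its differences were −0.23 ± 0.05 and −0.23 ± 0.06 (edgeR adjusted p = 0.0013 and 0.0015). In damt-1 P0, F1 and F2 those of elt-2 were 0.02, 0.15 and 0.07, and none was called. Transcripts of hif-1, whose product represses ftn-1 and raises smf-3 when iron is low in C. elegans, had log2 differences between −0.16 and 0.19 with SE of 0.24 or 0.25. None of them was called.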

How the data were processed

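RNA-seq of whole worms was analysed from 6 deposited tables of raw counts per RefSeq transcript, each with 4 libraries, together 16 libraries. The authors made the counts; the submitters' processing notes name the build ce10 and, without their roles, DESeq2 1.20.0, R 3.5.0, HTSeq 0.9.1, HISAT2 2.0.5, SAMtools 1.3.1 and Trimmomatic 0.35. The tables' 24 columns of normalized values per library and the deposited p-values were not used. Untreated columns repeated between tables held identical counts. A transcript not listed in a table had at most 10 counts over its 4 libraries: it was set to 0 in the fit and left untested in comparisons that use that table. Library totals of 3541390 to 4365451 counts limit precision for members under about 10 counts a library.

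All 16 libraries entered 1 quasi-likelihood fit with robust dispersion in edgeR 4.0.16 (R 4.3.3), with TMM scaling, a mean per group, and 12592 transcripts kept by a minimum count of 10. P-values were adjusted over all transcripts of each of 10 comparisons (Benjamini-Hochberg, threshold 0.05). CPM used the scaled library sizes. The script was tested on simulated data. Spliced lengths and names came from a WBcel235 annotation, so no coordinates are given. Replicates differed by slightly more than sampling noise in each group, with a chi-square per degree of freedom of 1.18 to 1.72. Same-numbered libraries of different groups did not deviate together (Pearson correlation −0.058 to 0.036 over 28 pairs of groups), so no block was used.

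The members, gene lists and tests were chosen with earlier results of these data known. The text names all members, damt-1, and up to 4 called pathway genes with the largest difference per comparison. It also names the 3 transcripts most like each member whose group means span at least 2-fold. The genes hrg-6, hrg-7, hmt-1, lpd-8, mop-25.1, R02E12.9, cdf-2, fpn-1.1, pqm-1, daf-16, elt-2, hif-1, aco-1 and mrp-5 were added after their values were seen. Alternatives were RLE scaling, TMM scaling from transcripts under 0.2 counts per nucleotide, no filter, a replicate block, only the groups compared, DESeq2 1.42.0, and each library left out. Promoter motifs were not analysed here.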

Additional observations from a re-analysis of the deposited data

Results flagged for a closer look

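These results were flagged by the interaction term of the edgeR fit, which compares the treated minus untreated difference between the 2 genotypes. Each value is the log2 difference in worms labelled damt-1 less that in wild type. The members were chosen by their counts in these same libraries, so for them the flag is no test and the values are a description. In P0 the values were −5.65 for mtl-1, −5.2 for hrg-2, −2.05 for ftn-1, −0.79 for smf-3 and 0.69 for hrg-1. In F1 they were −4.51 for mtl-1, −6.85 for hrg-2, −2.55 for ftn-1 and 0.48 for hrg-1. In F2 they were −4.57 for mtl-1, −6.04 for hrg-2, −2.6 for ftn-1 and 0.5 for hrg-1.

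The lists of other metal and heme genes were also chosen with earlier results of these data known. Among these genes, cdr-1 had 3.04 in P0, 3.07 in F1 and 2.97 in F2, and Y80D3A.9 (hrg-10) had −1.1, −1.66 and −1.56. The values of zipt-7.1 were −0.83, −1.03 and −1.24. These calls held in each fit that left out a library.

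Other calls rested on single libraries. For R186.1 (hrg-9) the value was −0.65 in F1 and −0.65 in F2. Neither was called by DESeq2 (−0.66 and −0.65) or with scaling taken from sparsely covered transcripts (−0.52 and −0.53). The F1 call was lost without damt-1 F1 replicate 1 (−0.56), untreated damt-1 replicate 2 (−0.48), wild type F1 replicate 2 (−0.46) or untreated wild type replicate 2 (−0.54). The F2 call was lost without damt-1 F2 replicate 1 (−0.56), wild type F2 replicate 1 (−0.62) or the same untreated libraries (−0.48 and −0.54). For fpn-1.2, a ferroportin homolog gene, the value was −1.34 in P0 and −1.38 in F1. DESeq2 did not call the P0 value (−1.35). The P0 call was lost without damt-1 P0 replicate 1 (−1.15), untreated damt-1 replicate 2 (−0.86), either wild type P0 library (−1.38 and −1.31) or untreated wild type replicate 2 (−1.16). The F1 call was lost without damt-1 F1 replicate 1 (−1.22), untreated damt-1 replicate 2 (−0.89), wild type F1 replicate 2 (−1.08) or untreated wild type replicate 2 (−1.19). For the ZIP transporter gene zipt-15 the value was −1.23 in F1 and −1.47 in F2. DESeq2 did not call the F1 value (−1.24). The F1 call was lost without damt-1 F1 replicate 2 (−1.03), untreated damt-1 replicate 1 (−1.01), wild type F1 replicate 2 (−1.18) or untreated wild type replicate 2 (−0.78), and the F2 call without that last library (−1.02). For the tested transcript of the zinc exporter gene ttm-1 the value was 1.61 in F2, on group means of 2.6 to 7.08 CPM. DESeq2 did not call it (1.6). The edgeR call was lost without either damt-1 F2 library (1.47 and 1.72) or untreated damt-1 replicate 2 (1.3). It was also lost without either wild type F2 library (1.53 and 1.71) or either untreated wild type library (1.61 each).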

How the results depend on the processing

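No log2 difference of a called member changed sign under the alternatives run. The members were chosen by their counts in these same libraries, so their calls below only describe how the fits differ and are no test. DESeq2 no longer called smf-3 in wild type F1 (−0.43), hrg-1 in wild type F1 and F2 (0.29 and 0.3), ftn-2 between untreated genotypes (0.19), or, for the difference between genotypes, smf-3 in P0 (−0.81) and hrg-1 in F1 and F2 (0.47 and 0.48). DESeq2 called fewer transcripts: 1032, 1044 and 1023 in damt-1 P0, F1 and F2, 1494 in wild type P0 and 1735 for the difference between genotypes in P0, against 1756, 1643, 1708, 2643 and 2720 by edgeR. Of the other metal and heme genes it called 9 in wild type P0, 17 in wild type F1, and 3 and 11 for the difference between genotypes in P0 and F1, against 15, 26, 9 and 21. The cause was not tested. Leaving out 1 library gave 5 to 9 such calls for the difference between genotypes in P0, with 5 without damt-1 P0 replicate 1, untreated damt-1 replicate 2 or untreated wild type replicate 2.

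Scaling on transcripts under 0.2 counts per nucleotide moved the median of all transcripts by −0.128 in wild type F1, −0.109 in wild type F2, 0.138 and 0.12 for the difference between genotypes in F1 and F2, and 0.0924 for untreated damt-1 against untreated wild type. The higher and lower calls then became 2463 and 3813 in wild type F1 (3290 and 2600 before), 2543 and 3490 in F2 (3246 and 2635), 3116 and 2079 between untreated genotypes (2233 and 2536), and 3095 and 2061 in F1 and 2918 and 2044 in F2 for the difference between genotypes (2309 and 2696, 2304 and 2664). Under it aco-1 and mrp-5 turned in wild type F1, to −0.04 and −0.02, and hrg-1 missed the threshold in wild type F1 and F2, at 0.16 and 0.19.

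The libraries share only a number: with a replicate block the calls in wild type F1 were 5851 against 5890, and no count moved by over 1.5 times. Depth limits mtl-1 and hrg-2 most, with 1 to 9 counts in untreated wild type libraries.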

Other observations

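Pharyngeal markers, 4 of 6 listed, summed to 319 to 349 CPM in treated damt-1 worms against 211 to 226 CPM in untreated damt-1 worms. In wild type they summed to 386 to 408 CPM in P0, 583 to 588 CPM in F1 and 566 to 575 CPM in F2 against 307 to 353 CPM untreated. Of the 4, edgeR called 2 higher in each damt-1 comparison and in wild type P0, and 3 in wild type F1. In wild type F2 it called 3 higher and 1 lower, so they did not all move the same way. The shares of all transcripts called are given above. No marker was at 0, and mtl-1 is known to be expressed in the pharynx of C. elegans. Their part in the level of mtl-1 was not tested.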
